A study of Mus musculus with 12 samples.

Results

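The glycolysis and hypoxia response genes are a list of 41 genes: transporters of glucose and lactate, enzymes of glycolysis and of pyruvate use, and targets and sensors of the hypoxia-inducible factor HIF-1. They were found by symbol, and all 41 had a row among the 24015 gene rows of the count files. Of these, 40 passed the filter on low counts and were tested. Eno1, the row of the main enolase gene, did not pass, with 0 to 2 counts per library.

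RNA was sequenced from mouse embryoid bodies, the aggregates that embryonic stem cells form in suspension when they differentiate, in 4 groups of 3 libraries: control and Trim33-deficient bodies, each on day 2 and on day 2.5. The design text gives the search for genes that differ between control and Trim33-deficient bodies as the purpose. Trim33 encodes a chromatin-binding regulator of TGF-beta family signalling. Per the labels, the stem cells of an outbred strain, at passages 8 to 10 and grown without feeders in LIF and 2i, were homozygous for a floxed Trim33 allele and carried UbcCreERT2, a Cre recombinase that tamoxifen activates. The labels call the control genotype wildtype, while the culture protocol gives the floxed allele and the Cre transgene for all lines. The deletion was started by adding 4OH-Tamoxifen on day 1. Whether control bodies received it too is not given in the sources used here. A protocol mentions 3 independent pairs, without tying a replicate number to a pair or a cell line, and no oxygen level, medium change or handling time is given for any library.

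Glycolysis splits glucose into pyruvate, which lactate dehydrogenase turns into lactate that leaves the cell through monocarboxylate transporters. Pluripotent stem cells are known for a high rate of this pathway even when oxygen is present. HIF-1 is a pair of proteins, HIF-1alpha and ARNT, that binds DNA at the core letters ACGTG or GCGTG and raises most genes of the pathway together with genes for vessel growth, mitophagy and collagen maturation. In the presence of oxygen the prolyl hydroxylases encoded by Egln1 and Egln3 mark HIF-1alpha for destruction, and both genes are themselves HIF-1 targets. HIF-1alpha is governed largely through the stability of its protein, which RNA counts do not measure.

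Promoters are shown for 6 of the members with the largest mean excess, over both days, of control replicate 2 over the other 2 controls. They are known HIF-1 targets and were taken in order of that excess, so their moving together was part of the choice. Sequences are from RefSeq (GRCm38.p6), from 250 bases before to 50 bases after the annotated start, in the direction of the gene, with every ACGTG or GCGTG in capitals. A match on the other strand reads CACGT or CACGC, and ACGTG can lie inside CACGTG, the E-box of other factors. Of Aldoc the first of the listed starts is shown.
Adm, chr7:110627407-110627706, plus strand: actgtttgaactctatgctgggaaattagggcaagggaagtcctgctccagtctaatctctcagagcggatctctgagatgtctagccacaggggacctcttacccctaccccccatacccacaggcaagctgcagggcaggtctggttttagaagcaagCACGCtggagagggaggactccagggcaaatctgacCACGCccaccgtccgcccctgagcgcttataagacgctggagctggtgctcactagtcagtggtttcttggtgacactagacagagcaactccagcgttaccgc
Eno2, chr6:124769624-124769923, minus strand: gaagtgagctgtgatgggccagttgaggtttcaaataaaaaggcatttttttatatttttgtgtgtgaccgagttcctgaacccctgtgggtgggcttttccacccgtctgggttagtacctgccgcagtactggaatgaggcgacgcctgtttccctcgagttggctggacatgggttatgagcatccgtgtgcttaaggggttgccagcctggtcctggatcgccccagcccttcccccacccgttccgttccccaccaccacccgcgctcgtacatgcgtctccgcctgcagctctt
Aldoc, chr11:78322823-78323122, plus strand: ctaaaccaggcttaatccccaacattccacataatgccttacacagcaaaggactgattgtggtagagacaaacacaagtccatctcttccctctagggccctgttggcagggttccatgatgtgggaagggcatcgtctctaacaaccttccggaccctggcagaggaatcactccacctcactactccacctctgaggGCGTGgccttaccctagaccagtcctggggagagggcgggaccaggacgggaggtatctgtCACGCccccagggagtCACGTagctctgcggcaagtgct
P4ha1, chr10:59323046-59323345, plus strand: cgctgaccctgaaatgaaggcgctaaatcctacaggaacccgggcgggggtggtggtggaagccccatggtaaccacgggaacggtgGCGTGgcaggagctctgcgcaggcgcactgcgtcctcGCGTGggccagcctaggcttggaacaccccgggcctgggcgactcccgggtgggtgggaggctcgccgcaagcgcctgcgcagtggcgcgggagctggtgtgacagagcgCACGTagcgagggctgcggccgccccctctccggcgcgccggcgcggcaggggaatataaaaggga
Egln1, chr8:124949205-124949504, minus strand: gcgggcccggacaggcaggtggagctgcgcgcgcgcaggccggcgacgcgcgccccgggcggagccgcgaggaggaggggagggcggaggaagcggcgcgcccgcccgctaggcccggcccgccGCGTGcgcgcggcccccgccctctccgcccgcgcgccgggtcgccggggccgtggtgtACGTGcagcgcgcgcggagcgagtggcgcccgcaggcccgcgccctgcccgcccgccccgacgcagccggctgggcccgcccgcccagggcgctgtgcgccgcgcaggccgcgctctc
Ankrd37, chr8:45999801-46000100, minus strand: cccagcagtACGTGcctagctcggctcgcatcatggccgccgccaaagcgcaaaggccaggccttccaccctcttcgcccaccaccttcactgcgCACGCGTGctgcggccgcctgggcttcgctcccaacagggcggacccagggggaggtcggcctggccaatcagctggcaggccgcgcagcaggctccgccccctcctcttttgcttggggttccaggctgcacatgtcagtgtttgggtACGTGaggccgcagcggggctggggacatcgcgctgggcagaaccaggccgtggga
The shown promoters of Ankrd37, P4ha1 and Aldoc held 4, 3 and 3 matches, those of Adm and Egln1 2 each, and that of Eno2 held 0. Among the members, 38 had 56 promoters in the table, and 43 of these (76.8%) held at least 1 match, against 14380 of all 32851 promoters (43.8%). The E-box CACGTG was in 6 of the 56 (10.7%), against 7.15% of all promoters. Slc2a3, Bnip3l and Ndrg1 were not among the promoters used. The list was drawn up to hold HIF targets, and the shares were neither matched for base composition nor tested. A match is a run of letters, and binding was not measured.

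Libraries held 10066338 to 16529627 counts in genes, so that a floor of 3 counts lay at 0.179 to 0.318 CPM (the count scaled to a common library size with TMM factors). That floor covers counting error only. Trim33 checked the labels: it lay at 261 to 277 and 239 to 264 CPM in the day 2 and day 2.5 controls and at 60.5 to 69.6 and 54.4 to 62.8 CPM in the deficient bodies. Rn45s, the precursor of ribosomal RNA, made up 0.609 to 1.67% of counts in 10 libraries, 11.9% in replicate 2 of the day 2.5 controls and 7.87% in replicate 1 of the day 2 deficient bodies. The 10 markers of pluripotent cells and epiblast summed to 4860 to 7260 CPM, the 5 of trophoblast to 4.96 to 10.7 CPM and the 4 of blood to 5.71 to 9.85 CPM. Tpbpa of trophoblast and Hbb-bh1 of blood were at 0 in every library, while Krt7 lay at 3.69 to 7.32 and Tal1 at 4.94 to 8.58 CPM. Control replicate 2 of both days stood apart in the members themselves, so results that rest on the controls are given with and without these libraries. They were picked by the members' own values, so the calls, SEs and p-values of fits without them are given as a description.

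Levels of different genes were compared per kilobase of exon (CPM per kb). Pkm, the pyruvate kinase, and Aldoa, the main aldolase, had group means of 969 to 1090 and of 587 to 812 CPM per kb. Ldha, the lactate dehydrogenase subunit that favours lactate, had 554 to 811 CPM per kb. Tpi1, Slc2a1, Slc2a3, Gpi1 and Pfkl had group means between 128 and 267 CPM per kb. At the other end Car9, the carbonic anhydrase of hypoxic cells, had 0.229 to 0.523 and Pfkfb4 0.802 to 1.26 CPM per kb. Car9 had 2 to 22 counts per library, so it reached 0.212 CPM in day 2 Trim33-deficient replicate 1, under that library's floor of 0.318.

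Within each isoenzyme family 1 member held most of the signal per kb. Aldoa made up 98.5 to 99.1% of Aldoa and Aldoc, Ldha 88.7 to 91.4% of Ldha and Ldhb, Hk2 78.3 to 88.2% of Hk1 and Hk2, and Pfkl 72.8 to 77.3% of the phosphofructokinases. The glucose transporters Slc2a1 and Slc2a3 were nearer to each other, with Slc2a1 at 43.0 to 64.5%, as were the lactate transporters, with Slc16a3 at 51.8 to 63.0%. The Hk2 share was 81.1% ± 2.51 and 80.4% ± 1.24 (SD, n = 3) in the controls of day 2 and day 2.5, and 84.3% ± 2.14 and 87.0% ± 1.18 (SD, n = 3) in the deficient bodies. The rows of 4 glycolytic genes cannot be read as the level of their enzyme: Gapdh lay at only 4.40 to 8.66, Pgk1 at 36.9 to 72.8 and Pgam1 at 20.8 to 30.2 CPM, and Eno1 was near 0 while the row of its copy Eno1b held 643 to 1109 counts. These genes have near-identical copies, and how reads with several positions were counted is not given in the sources used here.

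**Figure D1:**
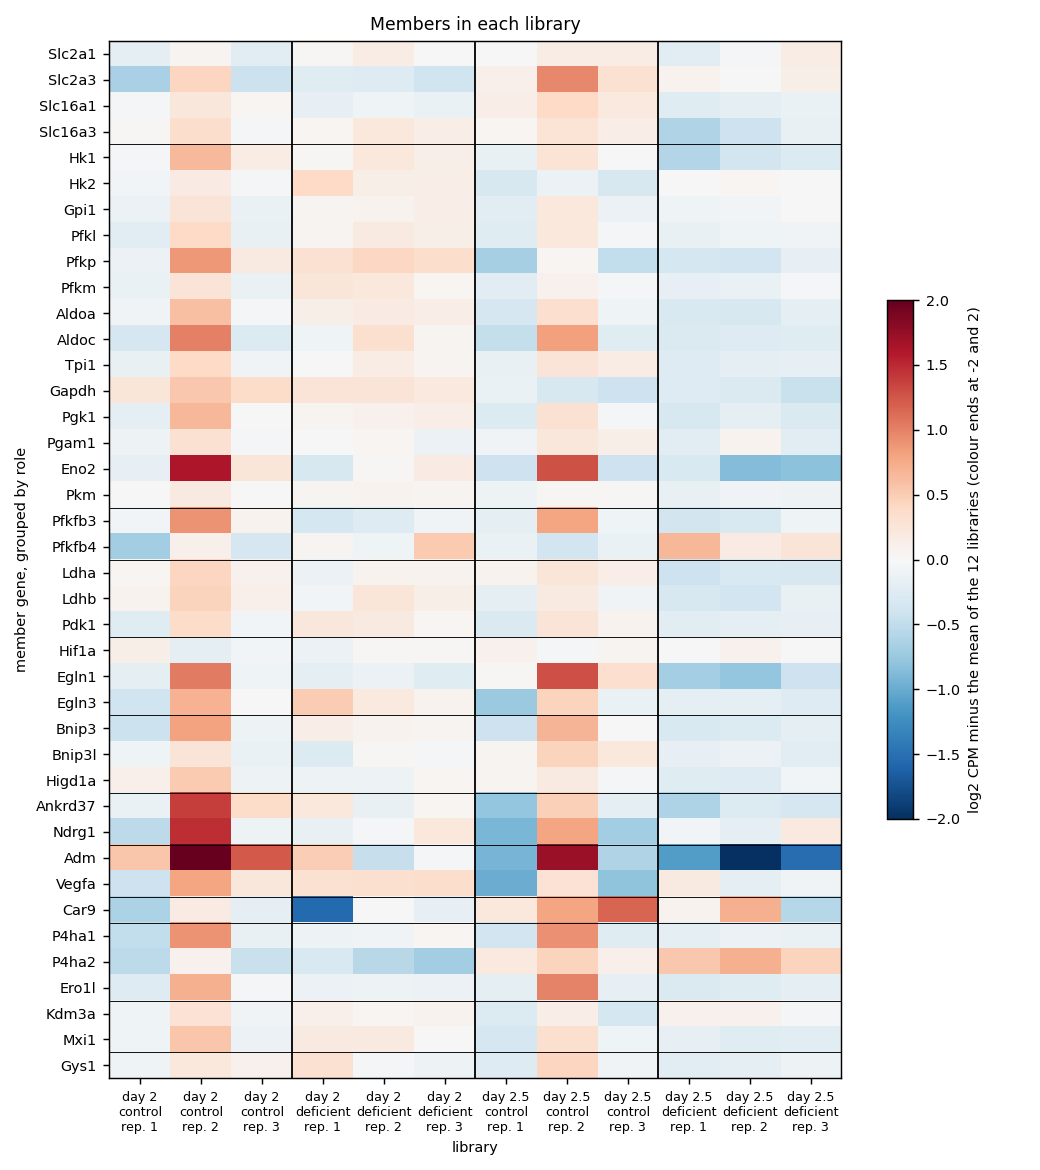
Heat map of the 40 tested members (rows, grouped by role) in each of the 12 libraries (columns, 3 per group). Colour is log2 CPM minus the gene's mean over the 12 libraries, from -2 (blue) to 2 (red). The columns of control replicate 2 are red in most rows on both days, with 27 members highest in day 2 control replicate 2 and 7 in day 2.5 control replicate 2.

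Control replicate 2 had higher levels of most members than the other 2 controls of its day. On day 2 it was the highest control for 39 of 40 members (39.7% of all 14356 genes tested), the exception being Hif1a. On day 2.5 it was the highest for 36 of 40 (38.6% of genes), the exceptions being Hif1a, Gapdh, Pfkfb4 and Car9. So it was the highest on both days for 36 of 40 (24.9% of genes). By a description with no test, 19 members on day 2 and 15 on day 2.5 lay 1.5-fold or more above the mean of the other 2 controls, against 4.83% and 4.01% of genes. In the other 10 libraries 0 or 1 member lay that far above its group, against 1.48 to 3.31% of genes. Replicate 1 of the controls had 13 and 12 members 1.5-fold or more below the mean of the other 2, which includes replicate 2 (3.60% and 3.09% of genes). The median member lay 0.57 (log2) above on day 2 and 0.38 on day 2.5, where the median gene lay within 0.01 of zero. In all 14 members were 1.5-fold or more above on both days, against 1.80% of genes.

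Adm had the largest mean excess over both days of the 40 tested members. It encodes adrenomedullin, a vasodilator peptide. It had 5.29, 23.1 and 8.5 CPM in the day 2 controls, replicates 1 to 3, and 1.90, 12 and 2.39 CPM in the day 2.5 controls. Replicate 2 was thus 3.40-fold and 5.33-fold above the other 2 controls. Vegfa, the vascular endothelial growth factor, had 11.9, 27.5 and 18.6 CPM on day 2 and 7.94, 19.4 and 9.07 CPM on day 2.5, with replicate 2 again the highest control of each day.

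Ndrg1, a stress-response gene with the next largest mean excess, and Ankrd37, an ankyrin-repeat gene, are known as HIF-1 targets. Ndrg1 had 22, 88.0 and 29.4 CPM in the day 2 controls and 16.8, 54.5 and 19.5 CPM in the day 2.5 controls. Ankrd37 had 7.69, 21.9 and 10.9 CPM on day 2 and 4.92, 11.7 and 7.37 CPM on day 2.5. For both genes the library next to replicate 2 among the controls was replicate 3. Of the oxygen sensors, Egln1 had 40, 94.9 and 43.2 CPM on day 2 and 46.6, 112 and 57.8 CPM on day 2.5. Egln3 lay 1.85-fold and 1.84-fold above the other 2 controls in replicate 2. Hif1a itself did not share the excess. It had 298, 245 and 267 CPM on day 2 and 292, 269 and 288 CPM on day 2.5, and replicate 2 was the lowest control of both days.

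Among the enzymes of glycolysis Eno2 and Aldoc had the largest mean excess. Eno2, the neuronal enolase, had 9.13, 31.3 and 12 CPM in the day 2 controls and 7.61, 24.5 and 7.62 CPM in the day 2.5 controls. Aldoc, the brain aldolase, had 18.6, 47.2 and 19.4 CPM on day 2 and 16.8, 41.4 and 19.8 CPM on day 2.5. The abundant isoform Aldoa had 1720, 2740 and 1790 CPM and then 1440, 2300 and 1700 CPM, a smaller excess. Pkm lay 0.17 and 0.06 above the other 2 controls on the log2 scale, and Hk2 0.21 and 0.20. Pfkfb3, which makes the activator of phosphofructokinase, was 1.85-fold and 1.91-fold above. Over the 14 tested enzymes 6 on day 2 and 3 on day 2.5 were 1.5-fold or more above. On day 2 these were Eno2, Aldoc, Pfkp, Pgk1, Aldoa and Hk1, and on day 2.5 Eno2, Aldoc and Pfkp.

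Transporters and the enzymes of pyruvate use were closer to the other controls. Of the 4 transporters only Slc2a3, the high-affinity glucose transporter, was 1.5-fold or more above, with 398, 837 and 463 CPM on day 2 and 667, 1220 and 772 CPM on day 2.5. Slc2a1, the widespread glucose transporter, had 595, 706 and 590 CPM on day 2, and 686, 754 and 753 CPM on day 2.5, so that replicates 2 and 3 were level there. Ldha, Ldhb and Pdk1, a mitochondrial kinase that inhibits pyruvate dehydrogenase, were 0 of 3 past 1.5-fold on either day. Pdk1 had 216, 332 and 246 CPM on day 2 and 211, 308 and 269 CPM on day 2.5. Pgk1, with the limit given above for its row, had 40.5, 72.8 and 45.8 CPM and then 38.1, 56.9 and 45.3 CPM.

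Some of the genes of collagen maturation, disulfide folding and mitophagy held further large differences. P4ha1, a collagen prolyl hydroxylase, had 29.0, 75.5 and 36.7 CPM in the day 2 controls and 31.3, 76.2 and 34.4 CPM in the day 2.5 controls. Ero1l, the oxidase that supplies disulfides in the endoplasmic reticulum, had 51.0, 100 and 59.6 CPM and then 53.3, 122 and 54.5 CPM. The mitophagy receptor Bnip3 had 32.8, 77.3 and 41.2 CPM and then 33.1, 70.9 and 44.1 CPM, whereas its relative Bnip3l lay only 0.36 and 0.30 above on the log2 scale. In each of these rows replicate 2 stood clear of both other controls. P4ha2 and the mitochondrial gene Higd1a, grouped with them, stayed under 1.5-fold. P4ha2 was 1.48-fold and 1.22-fold above the other controls, and Higd1a 1.43-fold and 1.12-fold.

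Measured features that moved with control replicate 2 were checked without testing their part in the result. Rn45s was at 11.9% of counts in replicate 2 of day 2.5 but at 0.873% in replicate 2 of day 2, where 19 members were 1.5-fold or more above. Day 2 Trim33-deficient replicate 1, with 7.87% Rn45s, had 1 member 1.5-fold or more above its group (Adm, against 3.31% of genes) and 1 below (Car9, against 2.99%). The summed level of 10 fibroblast markers was 30.8 to 38.1 CPM in the day 2 controls and 36.2 to 45.1 CPM in the day 2.5 controls, highest in replicate 2 of each day. Thy1 made most of that difference, with 11.5, 18.6 and 10.9 CPM on day 2 and 18.9, 25.7 and 19.2 CPM on day 2.5, while Col1a1 was lowest in replicate 2 on both days. Of these markers 5 were under 1 CPM in every library and Fap was at 0. The 8 markers of primitive and visceral endoderm summed to 32.4 to 36.2 and to 36.8 to 47.7 CPM, also highest in replicate 2. Dab2 alone of the 8 was highest there on both days. It had 17.9, 24.5 and 20.4 CPM on day 2 and 22.8, 32.3 and 26.9 CPM on day 2.5. The pluripotency sum was lowest among the controls in replicate 2, at 6710 of up to 7260 CPM and 6230 of up to 6910 CPM. Dnmt3b, the most abundant of them, had 3690, 3200 and 3540 CPM on day 2 and 3450, 2820 and 3370 CPM on day 2.5, whereas Nanog and Otx2 were highest in replicate 2 on both days. The part of each of these in the result was not tested.

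The excess of control replicate 2 was also looked at in further genes of the same pathways. Of 40 other HIF pathway and target genes, 11 on day 2 and 9 on day 2.5 were 1.5-fold or more above. Over all genes those shares were 4.83% and 4.01%. The median listed gene lay 0.32 and 0.24 (log2) above. Epas1 and Lox on day 2 and Lox on day 2.5 were 1.5-fold or more below (3.68% and 3.35% of genes). The 9 that were above on both days included Stc1 (stanniocalcin 1), Bhlhe40 and Bhlhe41 (transcriptional repressors), Ddit4 (an mTORC1 inhibitor) and Loxl2 (a lysyl oxidase). Bhlhe40 had 38.2, 109 and 44.5 CPM in the day 2 controls and 28.7, 92.3 and 39.5 CPM in the day 2.5 controls. Stc1 had 3.76, 12.6 and 3.62 CPM and then 2.23, 8.17 and 3.27 CPM. Of 40 tested further genes of glycolysis, glycogen, pyruvate and pentose phosphate metabolism, 4 and 3 were that far above (4.83% and 4.01% of genes). That far below were 0 and 2 (3.68% and 3.35% of genes), and the medians were 0.10 and 0.08. Pygl, the liver glycogen phosphorylase, was among the 3 on both days, with 1.52, 5.34 and 2.68 CPM and then 2.76, 6.40 and 3.21 CPM.

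**Figure D2:**
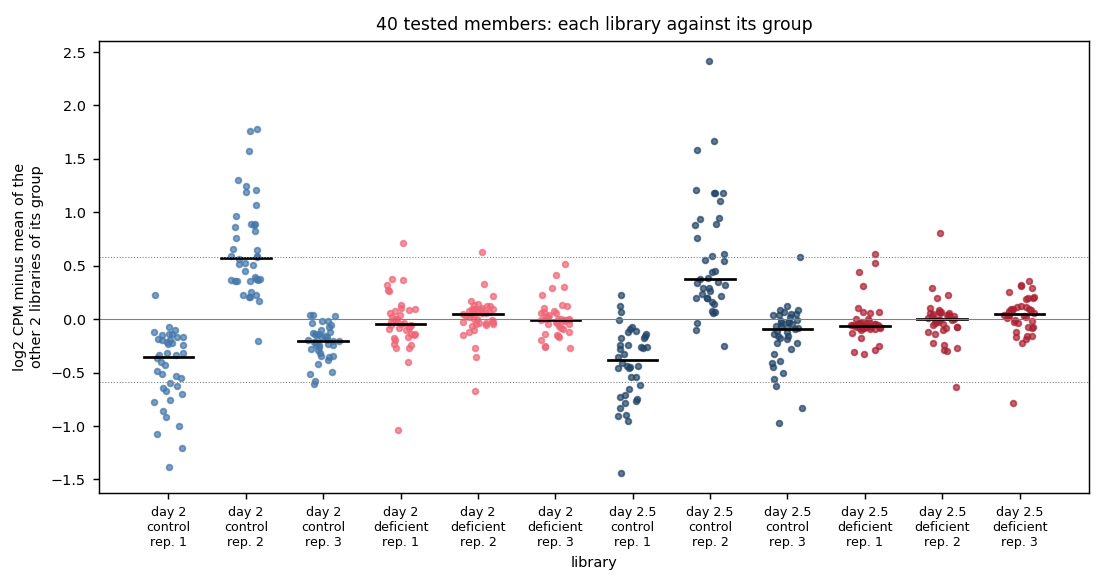
Deviation of each of the 40 tested members (points) in each library from the mean of the other 2 libraries of its group, as log2 CPM on the vertical axis. Dotted lines mark 1.5-fold and black bars the median member, which is 0.57 for day 2 control replicate 2 and 0.38 for day 2.5 control replicate 2.

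On day 2 no member differed between Trim33-deficient and control bodies by the test across all genes. Of 40 members 0 rose and 0 fell at an edgeR adjusted p under 0.05, where 5.94% of genes rose and 3.90% fell. DESeq2 called 0 as well, and an unadjusted p under 0.05 was reached by 3 members with edgeR and by 4 with DESeq2. The median member lay at -0.10 (log2) and the median gene at -0.00491. Lower or higher RNA in whole bodies cannot be told apart from fewer or more cells of a kind, here and below.

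In 3 members the day 2 groups did not overlap, each with the deficient libraries lower (14.5% of genes), and in 0 were they higher (14.9% of genes). Adm had 5.09, 2.63 and 3.56 CPM in the deficient bodies, all under the lowest control at 5.29, with a log2 fold change of -1.76 ± 0.77 (SE) and an edgeR adjusted p of 0.198. Slc16a1, the lactate and pyruvate transporter MCT1, had 238, 285 and 251 CPM in controls and 219, 231 and 224 CPM in deficient bodies, at -0.20 ± 0.07 (SE) and an edgeR adjusted p of 0.0896. Pfkfb3 had 45.7, 88.5 and 49.8 CPM in controls and 37.0, 39.8 and 44.9 CPM in deficient bodies, at -0.59 ± 0.32 (SE). Hif1a had 255, 281 and 280 CPM in the deficient bodies and overlapped the controls, with a log2 fold change of 0.01 ± 0.06 (SE).

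The day 2 comparison changed when control replicate 2 of both days was left out. For members high in these libraries, leaving them out raises the day 2 log2 fold change and narrows the spread by construction. All genes, whose shares are given beside the members, were not picked in this way. Without these libraries 9 members rose, against 7.94% of genes: Aldoa, Aldoc, Bnip3, Gpi1, Hk2, Pfkl, Pfkm, Pfkp and Slc2a3. Their log2 fold changes ran from 0.19 for Aldoa to 0.42 for Aldoc. The member that fell was Adm, at -0.92 ± 0.26 (SE) and an edgeR adjusted p of 0.0242, against 5.93% of genes. The median member then lay at 0.14 instead of -0.10. Hk2, the hexokinase that traps glucose in the cell, had 279, 328 and 288 CPM in the 3 controls and 382, 317 and 321 CPM in the deficient bodies, so that only control replicate 2 overlapped the deficient range. The phosphofructokinase Pfkl had 506, 775 and 529 CPM in controls and 610, 667 and 639 CPM in deficient bodies, so that control replicate 2 lay above the deficient range and the other 2 controls below it. Without day 2 control replicate 2 alone, Hk2 and Pfkm were the 2 members that rose (5.42% of genes).

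**Figure D3:**
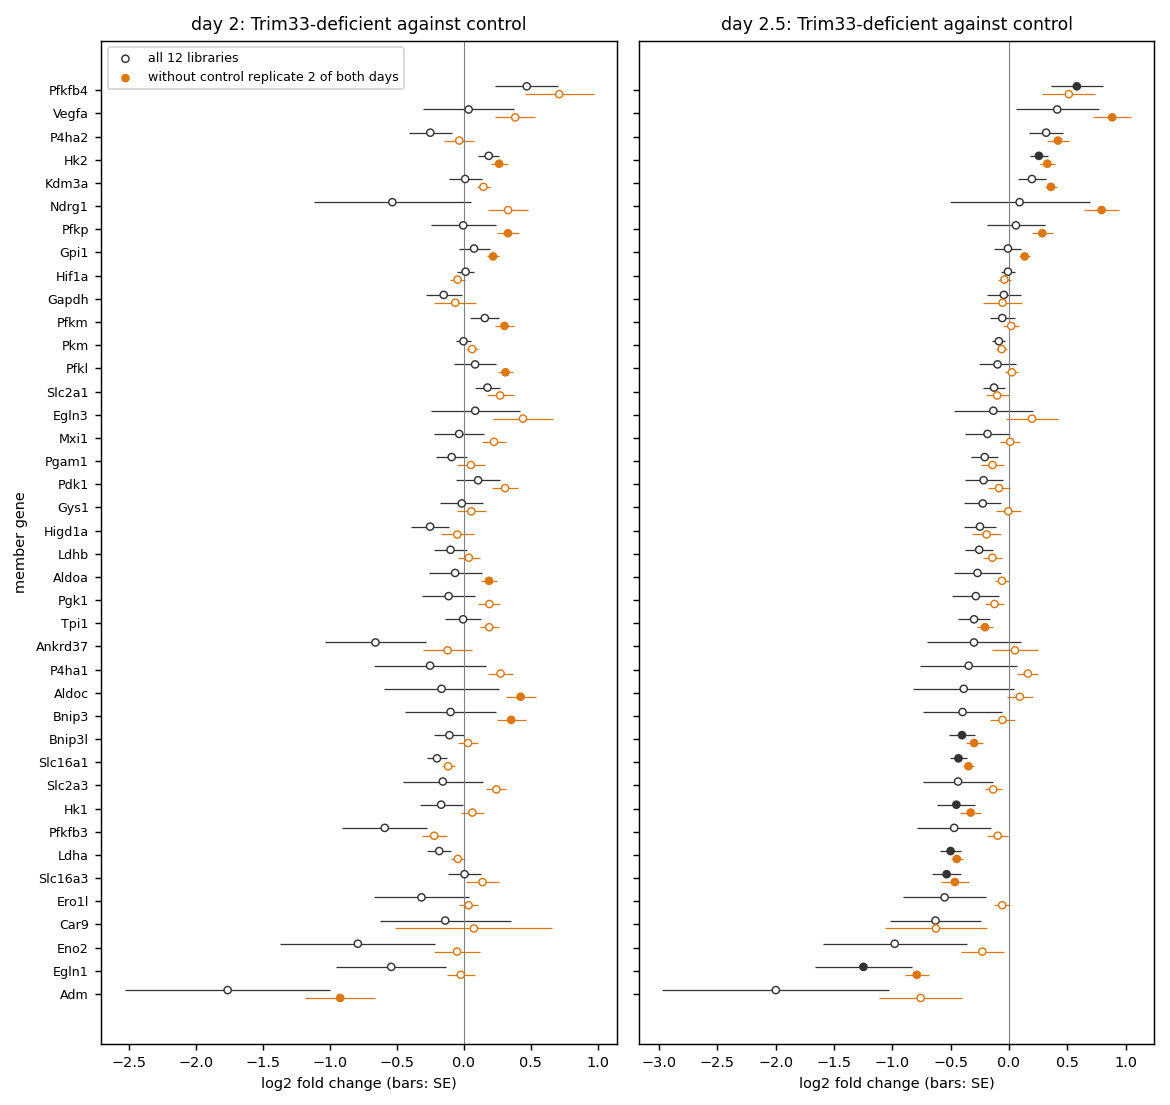
Log2 fold changes (horizontal axis, bars SE) of the 40 tested members between Trim33-deficient and control bodies on day 2 (left) and day 2.5 (right). Dark points are from all 12 libraries and orange points from the fit without control replicate 2 of both days, and filled points passed the test. On day 2 the median member moves from -0.10 to 0.14 and on day 2.5 from -0.25 to -0.06.

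On day 2.5 the lactate dehydrogenase gene Ldha and the lactate transporter genes Slc16a1 and Slc16a3 were lower in Trim33-deficient bodies. Of 40 members 6 fell (20.7% of genes fell) and 2 rose (22% of genes rose), so fewer members were called than genes at large. The members that fell were Slc16a1, Slc16a3, Ldha, Bnip3l, Egln1 and Hk1, and those that rose were Hk2 and Pfkfb4. The median member lay at -0.25 (log2) against -0.00959 for the median gene, and 7 of 40 members had a positive value. Groups did not overlap for 9 members in the lower direction (26.2% of genes) and 2 in the higher (26.7% of genes). Ldha, Slc16a1, Slc16a3 and Bnip3l passed the test under all 23 alternatives run on them. The other lactate dehydrogenase subunit, Ldhb, lay at -0.25 ± 0.12 (SE) and did not pass (edgeR adjusted p = 0.111).

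Ldha had 1410, 1590 and 1470 CPM in the day 2.5 controls and 1000, 1080 and 1070 CPM in the deficient bodies. The highest deficient library lay well below the lowest control, and the difference was 1.41-fold, -0.50 ± 0.09 (SE), with an edgeR adjusted p of 0.000532. Slc16a1 had 267, 323 and 281 CPM in controls and 207, 213 and 224 CPM in deficient bodies, 1.35-fold lower at -0.43 ± 0.07 (SE) and an edgeR adjusted p of 0.000205. Slc16a3 encodes MCT4, the lactate exporter of strongly glycolytic cells. It had 349, 414 and 376 CPM in controls and 224, 256 and 307 CPM in deficient bodies, 1.45-fold lower at -0.53 ± 0.12 (SE) and an edgeR adjusted p of 0.00537. Bnip3l, the mitophagy receptor NIX, had 87.6, 114 and 97.7 CPM in controls and 75.4, 77.6 and 72.7 CPM in deficient bodies, at -0.40 ± 0.11 (SE) and an edgeR adjusted p of 0.0109. Without control replicate 2 of both days these values were -0.45 for Ldha, -0.35 for Slc16a1, -0.46 for Slc16a3 and -0.30 for Bnip3l, and each passed.

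The hexokinases moved in opposite directions. Hk2 had 234, 268 and 232 CPM in the day 2.5 controls and 289, 298 and 290 CPM in deficient bodies, 1.19-fold higher at 0.26 ± 0.08 (SE) and an edgeR adjusted p of 0.0160. Hk1, the more widespread isoform, had 45.2, 60.3 and 49.8 CPM in controls and 33.3, 38.5 and 41.2 CPM in deficient bodies, 1.37-fold lower at -0.45 ± 0.16 (SE) and an edgeR adjusted p of 0.0449. The groups did not overlap for either gene. Hk2 did not pass without day 2.5 control replicate 1 (adjusted p = 0.0576), day 2.5 control replicate 3 (0.0744) or day 2.5 Trim33-deficient replicate 2 (0.0541). Hk1 passed in 12 of 23 alternatives, and its edgeR adjusted p reached 0.170 without day 2.5 control replicate 2 and 0.142 without day 2.5 Trim33-deficient replicate 1.

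Egln1 had the largest fold change of the members that fell, and its size moved with control replicate 2. It had 46.6, 112 and 57.8 CPM in the day 2.5 controls and 28.6, 26.9 and 34.5 CPM in deficient bodies, 2.37-fold lower at -1.25 ± 0.41 (SE) and an edgeR adjusted p of 0.0387. Without day 2.5 control replicate 2 it was -0.79 with an edgeR adjusted p of 0.127. Leaving out day 2 control replicate 2 as well kept it at -0.79 ± 0.10 (SE), with an edgeR adjusted p of 1.28e-05. Egln1 was itself high in both libraries left out, so the smaller SE and p follow in part from that choice. Pfkfb4, the counterpart of Pfkfb3 with higher phosphatase activity, had 3.08, 2.58 and 3.09 CPM in controls and 5.38, 3.80 and 4.05 CPM in deficient bodies, at 0.58 ± 0.22 (SE) and an edgeR adjusted p of 0.0465. These are 29 to 74 counts per library. Egln1 passed in 12 and Pfkfb4 in 11 of 23 alternatives, and without day 2.5 Trim33-deficient replicate 1 the adjusted p was 0.101 for Egln1 and 0.199 for Pfkfb4.

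Members that are targets of HIF-1 did not move as 1 block on day 2.5. Adm had 1.90, 12 and 2.39 CPM in controls and 1.67, 0.878 and 1.25 CPM in deficient bodies, which did not overlap, but its edgeR adjusted p was 0.131. Vegfa had 18.0, 14.0 and 15.1 CPM in the deficient bodies, between control replicate 2 at 19.4 and the other controls at 7.94 and 9.07. Ndrg1, with 30.3, 27.5 and 36.1 CPM in deficient bodies, was placed in the same way between control replicate 2 and the other controls. Without control replicate 2 of both days Vegfa rose 1.85-fold, at 0.89 ± 0.16 (SE) and an edgeR adjusted p of 0.000308, and Ndrg1 rose 1.73-fold, at 0.79 ± 0.15 (SE) and 0.000944. In that fit 7 members rose (22.8% of genes) and 7 fell (21.0% of genes). Besides Vegfa and Ndrg1, the members that rose were Gpi1, Hk2, Kdm3a, P4ha2 and Pfkp. Tpi1 fell beside the 6 named above, and Pfkfb4 did not pass (edgeR adjusted p = 0.0742). Hif1a lay at 276, 292 and 276 CPM in deficient bodies and overlapped the controls, with a log2 fold change of -0.01 ± 0.06 (SE).

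The other named members overlapped between the genotypes on day 2.5. Slc2a1 had 581, 665 and 759 CPM in deficient bodies, at -0.13 ± 0.09 (SE). Pdk1 had 221, 227 and 229 CPM, at -0.22 ± 0.16 (SE), and Pgk1 36.9, 40.2 and 37.7 CPM, at -0.28 ± 0.20 (SE). For Pdk1 and Pgk1 the deficient libraries lay close together and near the lowest control, at 211 and 38.1 CPM. Eno2, Aldoc, P4ha1, Ero1l and Bnip3, all of them high in control replicate 2, had log2 fold changes of -0.98, -0.39, -0.34, -0.55 and -0.40 with SEs of 0.34 to 0.62, and none of the 5 passed.

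**Figure D4:**
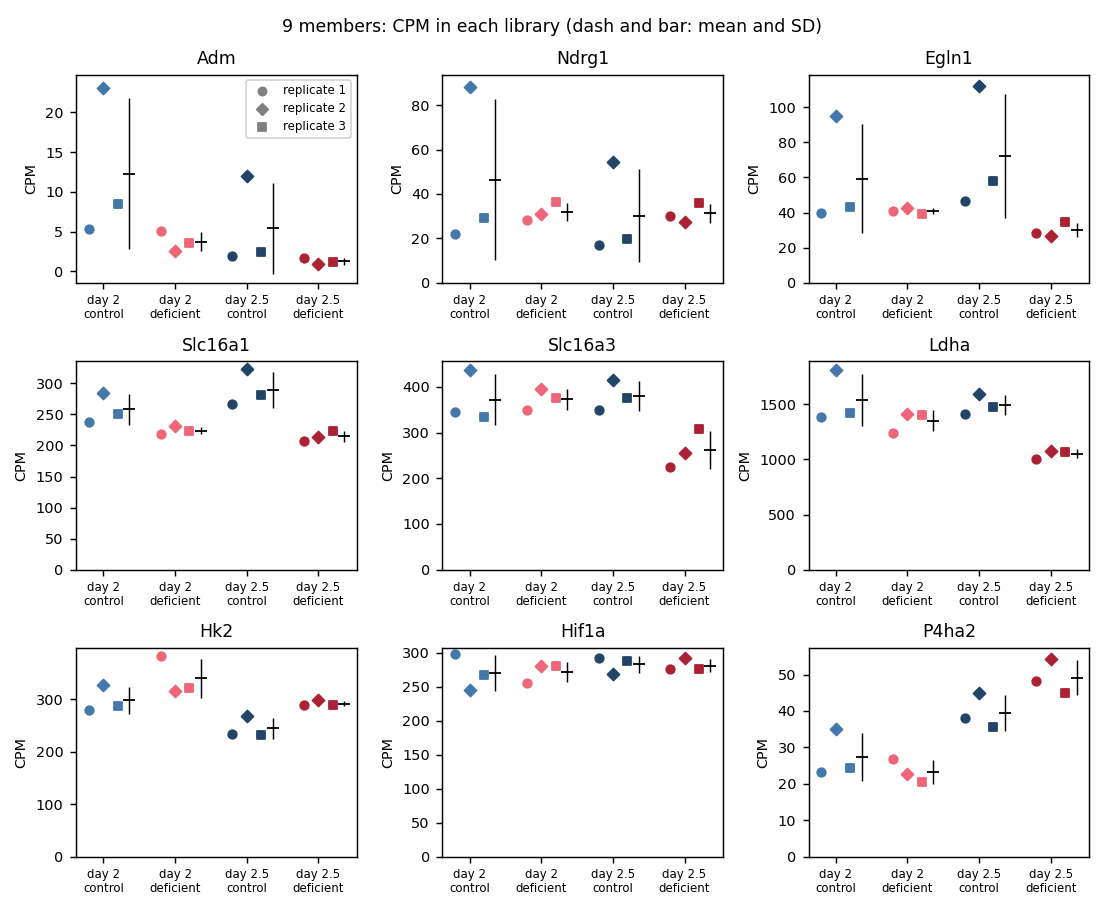
CPM (vertical axes) of 9 members in each library, by group, with marker shape for the replicate number and a dash and bar for the mean and SD of 3 libraries. Replicate 2 is the high control in Adm, Ndrg1 and Egln1, while in Slc16a1, Slc16a3 and Ldha the 3 day 2.5 deficient libraries lie below all 3 day 2.5 controls. Hif1a lies between 245 and 298 CPM throughout.

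The difference between the genotype effects of the days was tested as an interaction. No member passed, 0 higher and 0 lower, where 2.77% and 1.24% of genes did. With edgeR 5 members had an unadjusted p under 0.05, and DESeq2 called 1, Slc16a3. The interaction of Slc16a3 was -0.54 ± 0.18 (SE) with an edgeR adjusted p of 0.112, that of Ldha -0.32 ± 0.13 (SE) with 0.169, and that of P4ha2 0.57 ± 0.22 (SE) with 0.151. So the genotype effects on Ldha, Slc16a1 and Slc16a3 were not shown to differ between the days with all libraries in the fit. Without control replicate 2 of both days 6 members passed in the lower direction (3.23% of genes): Ldha at -0.40 with an edgeR adjusted p of 0.00344, Egln1, Pfkl, Slc16a1, Slc2a3 and Tpi1. Without day 2 control replicate 2 alone 4 did (3.55% of genes), namely Ldha, Slc16a1, Slc16a3 and Tpi1.

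From day 2 to day 2.5 few members changed in control bodies. Of 40 members 1 rose (8.20% of genes) and 2 fell (7.91% of genes). P4ha2, a collagen prolyl hydroxylase, rose 1.44-fold, from 23.1, 35.0 and 24.2 to 38.1, 45.0 and 35.5 CPM, at 0.52 ± 0.15 (SE) and an edgeR adjusted p of 0.0341. Hk2 fell 1.22-fold at -0.29 ± 0.08 (SE) and an edgeR adjusted p of 0.0221. The Gapdh row fell from 7.05, 8.66 and 7.71 to 5.45, 4.80 and 4.47 CPM, at -0.67 ± 0.14 (SE) and an edgeR adjusted p of 0.00421, with the limit of its near-identical copies. Groups did not overlap for 2 members in the higher direction, P4ha2 and Car9 (16.2% of genes), and for 2 in the lower, Hk2 and Gapdh (15% of genes). P4ha2 passed in 15 of 22 alternatives, and its edgeR adjusted p was 0.116 and 0.135 on leaving out replicate 1 or 3 of the day 2 controls, and 0.0613 and 0.113 on leaving out replicate 1 or 2 of the day 2.5 controls. Hk2 did not pass without day 2 control replicate 2 (0.0637), day 2.5 control replicate 1 (0.0683) or day 2.5 control replicate 3 (0.0936).

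Without control replicate 2 of both days more members changed in the controls. Then 4 rose (7.06% of genes) and 6 fell (6.55% of genes). Slc2a3 rose 1.67-fold at 0.74 ± 0.08 (SE) and an edgeR adjusted p of 0.000114, beside Bnip3l, Slc16a1 and P4ha2. Adm fell at -1.68 ± 0.31 (SE), with an edgeR adjusted p of 0.00143, and Vegfa at -0.84 ± 0.18 (SE), with 0.00455, beside Gapdh, Hk2, Kdm3a and Pfkp. Slc2a3 had 398 and 463 CPM in the remaining day 2 controls and 667 and 772 CPM in the remaining day 2.5 controls.

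In Trim33-deficient bodies most members were lower on day 2.5 than on day 2, by small amounts. In 25 of 40 members all 3 day 2.5 libraries lay under all 3 day 2 libraries (19.3% of genes), and in 2, P4ha2 and Slc2a3, above them (19.4% of genes). The median member lay at -0.25 (log2) against -0.00440 for the median gene, and 5 of 40 values were positive. With all 12 libraries in the fit 4 members fell (6.93% of genes) and 1 rose (9.09% of genes). P4ha2 rose 2.13-fold, from 26.8, 22.6 and 20.5 to 48.3, 54.4 and 44.9 CPM, at 1.09 ± 0.15 (SE) and an edgeR adjusted p of 0.000419, and passed in 22 of 22 alternatives.

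The members that fell with time in deficient bodies were Ldha, Ldhb, Slc16a3 and Gapdh. Ldha fell 1.29-fold, from 1240, 1410 and 1400 to 1000, 1080 and 1070 CPM, at -0.36 ± 0.09 (SE) and an edgeR adjusted p of 0.0140. Slc16a3 fell 1.42-fold, from 349, 395 and 376 to 224, 256 and 307 CPM, at -0.51 ± 0.13 (SE) and an edgeR adjusted p of 0.0190. The heart-type subunit Ldhb fell 1.31-fold, from 100, 123 and 113 to 82.7, 79.8 and 93.9 CPM, at -0.39 ± 0.12 (SE) and an edgeR adjusted p of 0.0462. Gapdh went from 7.11, 7.13 and 6.88 to 5.02, 4.90 and 4.40 CPM, at -0.56 ± 0.14 (SE) and an edgeR adjusted p of 0.0125. Each of the 4 had separate groups. In the controls over the same days the log2 fold changes were -0.05 ± 0.09 for Ldha, -0.24 ± 0.12 for Ldhb and 0.03 ± 0.12 for Slc16a3 (SE). Gapdh fell there as well, at -0.67 ± 0.14 (SE). The interaction passed for none of the 4, with edgeR adjusted p of 0.112 to 0.804. Without day 2 Trim33-deficient replicate 2 none of the 4 passed for day in deficient bodies (edgeR adjusted p of 0.0522 to 0.167). The count of those that fell was 1 without day 2 Trim33-deficient replicate 3 or day 2.5 Trim33-deficient replicate 1, and 2 without day 2.5 Trim33-deficient replicate 2.

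The count in deficient bodies changed with the libraries in the fit. A fit of the 6 deficient libraries alone called 23 of 39 members as lower (10.9% of genes). The fit without control replicate 2 of both days, which kept every deficient library, called 21 of 40 (11.4% of genes). All groups in a fit share a common estimate of each gene's spread, so control libraries enter the SEs of the deficient bodies. With all 12 libraries Pfkp lay at -0.65 ± 0.245, Hk1 at -0.52 ± 0.164 and Aldoa at -0.40 ± 0.199 (SE). Without control replicate 2 of both days Pfkp fell at -0.65 ± 0.08 (SE) and an edgeR adjusted p of 7.28e-06. Hk1 then fell at -0.52 ± 0.08 (SE) and 9.29e-05, and Aldoa at -0.40 ± 0.05 (SE) and 2.89e-05. Pfkp, the platelet phosphofructokinase, had 79.6, 85.9 and 82.4 CPM on day 2 and 50.6, 49.6 and 57.6 CPM on day 2.5. Aldoa had 1960, 2030 and 1980 CPM on day 2 and 1470, 1450 and 1590 CPM on day 2.5, and the Aldoa groups of the deficient bodies lay far apart against their own spread. Slc2a3 was 1 of the 2 members that rose in that fit, from 529, 520 and 473 to 654, 629 and 677 CPM, at 0.36 ± 0.07 (SE) and an edgeR adjusted p of 0.00167.

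**Figure D5:**
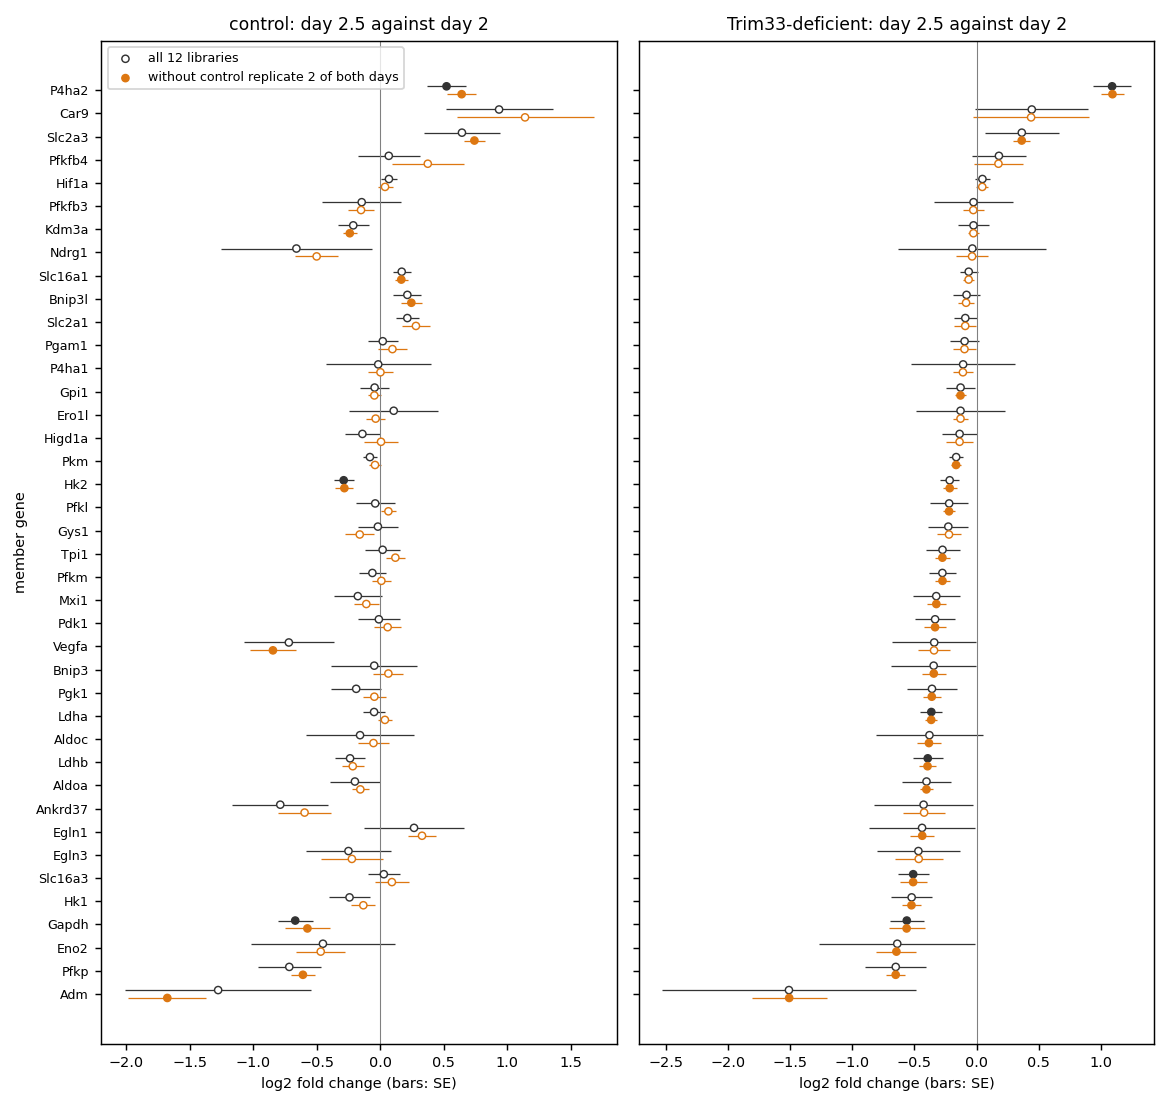
Log2 fold changes (horizontal axis, bars SE) of the 40 tested members from day 2 to day 2.5 in control (left) and Trim33-deficient bodies (right). Dark points are from all 12 libraries and orange points from the fit without control replicate 2 of both days, and filled points passed the test. In deficient bodies the members called lower go from 4 to 21 while their values barely move.

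Among further genes of HIF signalling, Hmox1 and Cited2 rose on day 2.5. Of the 40 further HIF pathway and target genes, 1 rose and 0 fell on day 2 (5.94% and 3.90% of all genes). On day 2.5, 9 rose and 5 fell, at a median of 0.0153 (log2). These are 22.5% and 12.5% on day 2.5, against 22% and 20.7% of all genes, and the list was not tested against the members. Hmox1, haem oxygenase 1, had 189, 156 and 150 CPM in the day 2.5 controls and 373, 423 and 593 CPM in deficient bodies, 2.80-fold higher at 1.49 ± 0.18 (SE) and an edgeR adjusted p of 0.000166. Cited2, which competes with HIF-1 for a coactivator, rose on both days, at 0.33 ± 0.06 on day 2 and 0.55 ± 0.06 on day 2.5 (SE), with edgeR adjusted p of 0.00402 and 3.98e-06. Among those named here, the interaction passed for Hmox1 in the higher direction (edgeR adjusted p = 0.0264) and for Arnt2 in the lower (0.0267).

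Of the genes for subunits of the HIF factors, Arnt had a log2 fold change of -0.13 ± 0.06 (SE) on day 2.5 and did not pass (edgeR adjusted p = 0.0823). Epas1, which encodes HIF-2alpha, had 38.9, 21.0 and 24.9 CPM in the day 2.5 controls and 106, 93.4 and 94.2 CPM in deficient bodies, 3.42-fold higher at 1.78 ± 0.35 (SE) and an edgeR adjusted p of 0.00378. Arnt2 and Hif3a fell, at -0.54 ± 0.11 and -0.44 ± 0.10 (SE), with edgeR adjusted p of 0.000753 and 0.00249. Stc1 had 0.727, 0.805 and 0.893 CPM in deficient bodies and fell at -2.42 ± 0.76 (SE), with an edgeR adjusted p of 0.0267. Its highest control was replicate 2, and without that library and day 2 control replicate 2 it was at -1.75 ± 0.33 (SE). Without control replicate 2 of both days 17 of these genes rose and 6 fell on day 2.5 (22.8% and 21.0% of all genes), and 7 rose and 0 fell on day 2 (7.94% and 5.93%).

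Among further genes of glucose and pyruvate use, Pdk4 and Pfkfb2 rose and Pdha1 and Me2 fell on both days. Of 40 tested genes 4 rose and 3 fell on day 2 (5.94% and 3.90% of all genes), and 10 rose and 11 fell on day 2.5 (22% and 20.7% of all genes), at medians of -0.05 and -0.06 (log2). On day 2.5 these are 25% and 27.5% of the list. Pdk4, a kinase that inhibits pyruvate dehydrogenase, had 4.80, 6.57 and 4.64 CPM in the day 2 controls and 9.65, 9.69 and 9.65 CPM in deficient bodies, 1.81-fold higher with an edgeR adjusted p of 0.00633. On day 2.5 it was 2.02-fold higher, with an edgeR adjusted p of 0.000158. Pdha1, the alpha subunit of pyruvate dehydrogenase, fell on both days, at -0.24 ± 0.04 on day 2 and -0.23 ± 0.04 on day 2.5 (SE), with edgeR adjusted p of 0.00307 and 0.000399. The beta subunit Pdhb rose on day 2.5 at 0.43 ± 0.06 (SE), with an edgeR adjusted p of 3.93e-05, and its interaction passed (adjusted p = 0.0221). Me2, mitochondrial malic enzyme, fell at -0.35 ± 0.06 on day 2 and -0.57 ± 0.06 on day 2.5 (SE), with edgeR adjusted p of 0.00190 and 2.37e-06. Pfkfb2, a relative of Pfkfb3 and Pfkfb4, rose on both days, from 14.4, 18.2 and 17.3 to 23.8, 19.5 and 21.8 CPM on day 2 and from 18.2, 16.1 and 17.1 to 30.7, 28.9 and 26.4 CPM on day 2.5, with edgeR adjusted p of 0.0346 and 3.81e-05.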

How the data were processed

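Each of the 12 libraries has a deposited table of unnormalized read counts by gene symbol. Per the submitters' processing notes they were made with STAR and HTSeq on mm9, and the notes also name DESeq. Not given in the sources used here are the tools' versions, the annotation, the strand setting and how multiply placed reads were treated. The 5 closing rows, which name no gene, entered neither the library sizes nor the tests: 55.9 to 60.5% of reads fell in no feature and 0.144 to 0.189% in several genes. In 1 library, 27 gene names that a spreadsheet had turned into dates were restored by row position, none of them a member.

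CPM were computed from these counts with TMM factors. Tests used edgeR 4.0.16 (R 4.3.3): genes were filtered with filterByExpr on the groups, and the quasi-likelihood model (robust) had a mean for each of the 4 groups, which leaves 8 residual degrees of freedom. P-values were adjusted (Benjamini-Hochberg) over the 14356 genes tested of 19581 with any count, at a threshold of 0.05. The 5 comparisons were genotype on each day, day in each genotype, and their interaction. All groups in a fit share a common estimate of each gene's spread, so every library enters the SE of every comparison. An SE is the absolute log2 fold change divided by the square root of F. Each library was also set against the other 2 of its group in log2 CPM with a prior count of 2, as a description. Since no source says which cultures the libraries came from, P-values cover only how these libraries vary, which may be technical. Exon lengths (GENCODE) and promoters (RefSeq) are of GRCm38, used for lengths and sequences only. Scripts were tested on simulated counts.

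The members and lists were chosen with earlier results of these data known. Values in each library were to be given for the members called in each comparison, the 10 with the largest mean excess in control replicate 2, and Hif1a, Slc2a1, Hk2, Pgk1, Ldha, Pdk1, Vegfa and Trim33, and promoters for up to 6 members in order of that excess. Aldoa, Pfkp, Pfkl, Pfkfb3, Slc2a3 and the listed Stc1 and Pygl were added after their values were seen. Of the further lists 40 of 40 HIF genes and 40 of 44 glucose and pyruvate genes were tested. Some listed genes enter the counts but are not reported by name here. Alternatives were RLE and upper-quartile factors, no filter, DESeq2 1.42.0, the compared groups alone, replicate blocks, leaving out libraries, and leaving out Rn45s.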

Additional observations from a re-analysis of the deposited data

Results flagged for a closer look

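For 3 further genes named here, and none of the 40 tested members, the genotype effect on day 2.5 differed from that on day 2. The test was the interaction across all genes (edgeR, adjusted p under 0.05, all 12 libraries). Of the HIF list 5% passed in the higher and 2.5% in the lower direction, and of the glucose and pyruvate list 2.5% and 0%. Over all genes 2.77% and 1.24% did. Hmox1 had a difference of 1.33 ± 0.25 (log2, SE), from 0.16 on day 2 to 1.49 on day 2.5, with an edgeR adjusted p of 0.0264. Its interaction did not pass without both libraries rich in Rn45s (0.0782) or without control replicate 2 of both days and day 2 Trim33-deficient replicate 1 (0.0657).

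Arnt2, a relative of the HIF-1 partner ARNT, had a difference of -0.67 ± 0.15 (SE), from 0.13 to -0.54, with an edgeR adjusted p of 0.0267. It had 20.7, 21.1 and 22.1 CPM in the day 2.5 controls and 16.8, 13.5 and 13.6 CPM in the deficient bodies, which did not overlap. Pdhb had a difference of 0.38 ± 0.08 (SE), from 0.05 to 0.43, with an edgeR adjusted p of 0.0221. It had 101, 88.8 and 98.5 CPM in the day 2.5 controls and 136, 126 and 126 CPM in the deficient bodies. Arnt2 and Pdhb also passed in the 3 fits that left out control replicate 2 of both days, these and day 2 Trim33-deficient replicate 1, or both libraries rich in Rn45s.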

How the results depend on the processing

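Leaving out each library in turn gave 0 to 2 members higher and 0 to 1 lower for genotype on day 2, 0 to 4 higher and 4 to 9 lower on day 2.5, 0 to 5 higher and 1 to 6 lower for day in controls, 1 higher and 0 to 11 lower for day in Trim33-deficient bodies, and 0 higher and 0 to 4 lower for the interaction. Without control replicate 2 of both days the counts were 9 higher and 1 lower on day 2, 7 higher on day 2.5, 4 higher and 6 lower in controls, 2 higher and 21 lower in deficient bodies, and 6 lower for the interaction. Without these and day 2 Trim33-deficient replicate 1 they were 7 higher and 1 lower, 7 higher, 4 higher and 8 lower, 2 higher and 21 lower, and 2 higher and 7 lower. Without both libraries rich in Rn45s they were 4 higher on day 2.5 and 0 higher and 4 lower in controls. The fit of the compared groups alone gave 0 higher in controls and 2 higher and 23 lower in deficient bodies, and no filter gave 0 higher in controls. Upper-quartile factors and DESeq2 each gave 1 higher on day 2.5, and DESeq2 gave 1 lower for the interaction. The cause of these changes was not tested. Shares of all genes moved as well. Without control replicate 2 of both days 7.94% rose and 5.93% fell on day 2, and 22.8% rose on day 2.5. In that fit 7.06% rose and 6.55% fell in controls, 12.2% and 11.4% in deficient bodies, and 3.23% were lower for the interaction. Where no share is given here, a count does not by itself set the members apart from other genes. At 2-fold 8 members stood high in control replicate 2 of each day, and the 4 deficient libraries with 1 member past 1.5-fold had 0. Day 2.5 control replicate 3 had 1 with upper-quartile factors or a prior count of 0.5.

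On leaving out control replicate 2 of both days, 20 members changed sign on day 2 and 8 on day 2.5. Of these, those that passed the test in that fit, with the sign opposite to that from all libraries, were, on day 2, Slc2a3 at 0.24, Pfkp at 0.33, Aldoa at 0.19, Aldoc at 0.42 and Bnip3 at 0.35, and on day 2.5 Gpi1 at 0.14. On also leaving out day 2 Trim33-deficient replicate 1 they were Pfkp at 0.35, Aldoc at 0.49 and P4ha1 at 0.30 on day 2 and Gpi1 at 0.14 on day 2.5. Over all alternatives and members, 62 values lost and 182 gained a call in the same direction, 10 changed sign with a call in the alternative alone, 282 changed sign with no call in either fit, and 4046 kept sign and call.

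The replicate numbers were not taken as pairs, since no source ties them to one. Over all genes, deviations of same-numbered libraries correlated at 0.07, 0.17 and -0.08 between genotypes on day 2, at -0.00944, -0.03 and -0.01 on day 2.5, at 0.365, 0.45 and 0.03 between days in controls and at 0.18, -0.02 and 0.09 in deficient bodies. Over the members alone the controls of both days correlated at 0.876, 0.900 and 0.610, but replicates 1 and 3 also did so with each other, at 0.647 and 0.513. Between genotypes the members gave -0.131, -0.305 and -0.08 on day 2 and -0.281, -0.549 and -0.280 on day 2.5. With the replicate block over all libraries 0 members were higher and 1 lower on day 2, 3 higher and 8 lower on day 2.5, 4 higher and 2 lower in controls, 1 higher and 6 lower in deficient bodies, and 1 higher and 2 lower for the interaction. With a block within each day the interaction had 0 higher and 2 lower. No share of all genes is given for the block fits, so their counts do not set the members apart from other genes. Depth limits Car9 and Eno1, whose counts were 2 to 22 and 0 to 2 per library.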
